A study of Mus musculus with 47 samples.

Results

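The time-of-day difference in the cortex of mice on control chow was measured across all genes, between ZT14, early in the dark phase, and ZT2, early in the light phase. The comparison holds the 7 libraries of 47 in the series whose labels give control diet and either of these Zeitgeber times, with 3 mice at ZT14 and 4 at ZT2, and no measured value entered that choice. The series asked whether microglia and perineuronal nets, the lattice of matrix around some neurons, change over the day. It also asked how the absence of microglia affects daily gene rhythms in the cortex. Its mice were harvested at 6 Zeitgeber times on control chow or on chow with PLX5622, an inhibitor of CSF1R used to deplete microglia. Both groups compared here were C57BL/6J males, about 3 months old, kept on control chow for 10 days without any drug, so that the labels separate them by the time of harvest alone. Each library came from bulk cortex of a single hemisphere of 1 perfused mouse, so every value is an average over all cell types of the dissected piece. The labels do not tie mice to cages or litters. The p-values for genes in this comparison measure only the spread between mice of the same Zeitgeber time. That spread was estimated over all 23 control libraries, these 7 among them.

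Nearly all mammalian cells keep time with a loop of transcription factors. CLOCK and BMAL1, the product of *Arntl*, bind E-box sequences and switch on the Period, Cryptochrome, Rev-erb (*Nr1d1*, *Nr1d2*) and Dec (*Bhlhe40*, *Bhlhe41*) genes, whose products in turn hold back CLOCK and BMAL1 or the transcription of *Arntl*. PAR bZIP factors such as DBP pass the rhythm on through D-box sequences, and in nocturnal mice the early dark phase is also the time of waking activity, of a higher body temperature and of high circulating corticosterone.

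Of 17776 genes tested, 74 (0.416%) differed between the times at an adjusted p under 0.05 (edgeR's quasi-likelihood test on counts, with Benjamini-Hochberg adjustment over all genes), which is what "called" means throughout. Of these, 57 (0.321%) were higher at ZT14 and 17 (0.0956%) were lower. The genes higher at ZT14 were led by clock genes (*Ciart*, *Dbp*, *Nr1d2*, *Per1*, *Per2*) and by genes that respond to glucocorticoids (*Fkbp5*, *Plin4*, *Hif3a*, *Tsc22d3*), and those lower at ZT14 by the clock activator *Arntl* and the endothelial tight junction gene *Cldn5*. Most changes were modest, with a median absolute log2 fold change of 0.66 among the called genes. Only 13 of the 74 changed by at least 1 on the log2 scale, 11 upwards and 2 downwards. In 73 of the 74 called genes, no mouse at ZT14 overlapped any mouse at ZT2, against 1871 (10.5%) of all genes tested, and the calls were made from the same values. The exception was *Tnni2*, a skeletal muscle troponin, chosen here after its values were seen, at 0.269, 0.116, 0.104 and 0.110 CPM (counts scaled to library size with TMM factors) at ZT2 and 0.217, 0.553 and 4.60 CPM at ZT14, where the third ZT14 mouse alone was high and without it the adjusted p was 0.681. At an unadjusted p under 0.05 by edgeR, 1414 genes (7.95%) were higher and 1215 (6.84%) were lower. The median log2 fold change over all genes was -6.71e-05. A lack of overlap or a low unadjusted p in genes not called, given below, is to be read against these shares of all genes. Of the 74 genes, 72 were protein coding, and 25 have exons that overlap those of another gene, 23 of them on the opposite strand. In bulk tissue, fewer cells of a type and less RNA per cell cannot be told apart.

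**Figure D1:**
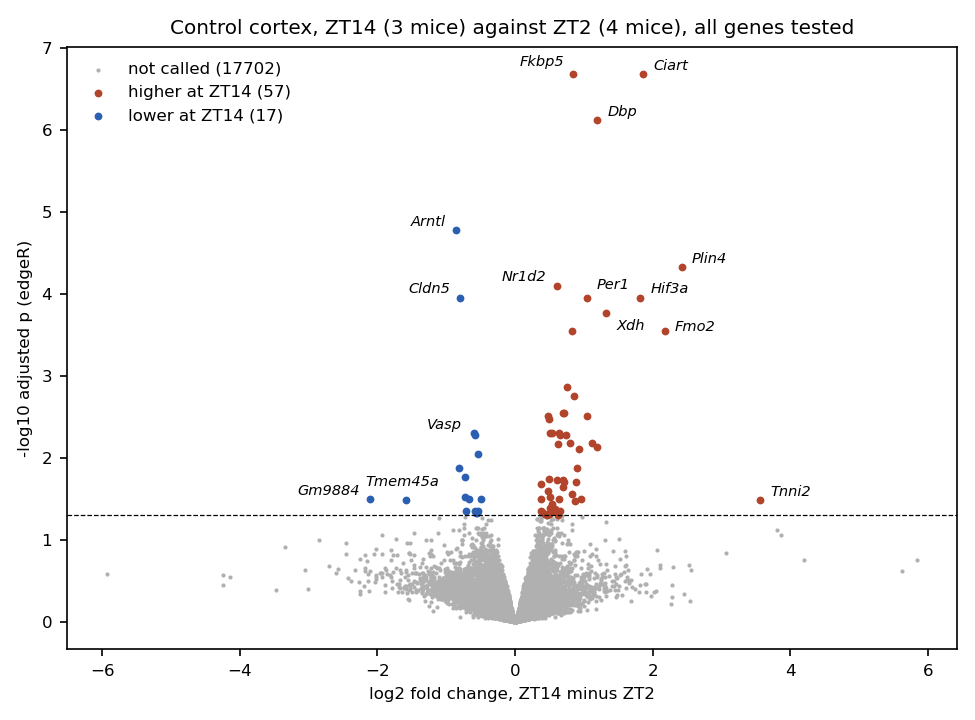
Each point is 1 of the 17776 genes tested, with the log2 fold change of ZT14 against ZT2 on the x axis and -log10 of the adjusted p on the y axis, where the dashed line marks an adjusted p of 0.05. The 57 genes called higher (red) and 17 called lower (blue) are few beside the 17702 not called (grey), and *Fkbp5*, *Ciart* and *Dbp* stand highest.

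Library totals ran from 17840588 to 19944418 counts at ZT2 and from 18777482 to 24085876 at ZT14. Mitochondrially encoded transcripts took 9.09%, 9.59%, 9.23% and 7.199% of the counts at ZT2 and 7.66%, 8.27% and 6.46% at ZT14, so that the ranges overlapped (exact permutation test, two-sided p = 0.171, where 3 against 4 mice cannot go below 0.0571). The fourth ZT2 mouse and the third ZT14 mouse had the lowest share of their groups. With the mitochondrial share as a covariate, 39 genes were called, 37 of them among the 74. The summed TPM (transcript abundance scaled to a fixed total per library) of 10 choroid plexus markers ran from 770.1 to 1251 at ZT2 and from 221 to 920.2 at ZT14, and that of 14 myelin genes from 5779 to 7522 and from 4358 to 5847, so these sums also leaned lower at ZT14, with overlap. Their part in the genes that fell was not tested. The number of calls ran from 24 to 255 when 1 of these mice was left out, with 24 without the third ZT14 mouse, 34 to 36 without 1 of the first 3 ZT2 mice, 65 and 119 without the first and second ZT14 mouse and 255 without the fourth ZT2 mouse. Of the 74 called genes, 22 were called in each of the 7 fits that left out 1 of these mice (20 higher and 2 lower, *Arntl* and *Cldn5*), and the other 52 were lost in at least 1.

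Clock genes were prominent among the calls. All gene lists used here were chosen with earlier results of these data known, so shares of their members are a description. Of the 29 members of 3 clock lists, 9 were called, 8 higher and 1 lower at ZT14, a share to be read against 0.416% of all genes. *Ciart* (mm10 chr3:95878503-95882251), which encodes a repressor of CLOCK and BMAL1, was at 5.002, 4.34, 3.99 and 4.58 CPM in the ZT2 mice and at 13.4, 18.3 and 16.7 CPM in the ZT14 mice. Every ZT14 mouse was above every ZT2 mouse, and the level rose 3.62-fold (log2 fold change 1.86, SE 0.16, adjusted p = 2.12e-07 by edgeR).

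The Period genes encode the repressors of the loop. *Per1* (chr11:69095217-69109960) was at 59.8, 58.0, 57.4 and 70.6 CPM at ZT2 and at 122, 120.0 and 134 CPM at ZT14. *Per2* was at 35.6, 30.4, 28.5 and 26.4 CPM at ZT2 and at 49.5, 53.6 and 48.5 CPM at ZT14. In both genes the groups did not overlap, with log2 fold changes of 1.04 (SE 0.13) and 0.75 (SE 0.12) and adjusted p-values of 0.000112 and 0.00139 by edgeR. *Per3* was at 32.9, 30.01, 35.02 and 24.04 CPM at ZT2 and at 38.7, 49.3 and 33.3 CPM at ZT14, with overlapping groups, a log2 fold change of 0.41 (SE 0.13) and an adjusted p of 0.151, and was not called.

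*Cry1* and *Cry2*, the cryptochrome partners of the Period proteins, were not called. *Cry1* was at 24.7, 27.1, 23.3 and 25.9 CPM at ZT2 and at 30.8, 31.2 and 27.9 CPM at ZT14, with no overlap, a log2 fold change of 0.26 (SE 0.087) and an adjusted p of 0.197 by edgeR. *Bhlhe41*, a Dec repressor that competes for E-boxes, was at 33.3, 32.9, 31.7 and 33.7 CPM and 47.9, 43.3 and 45.5 CPM, a tight separation with a log2 fold change of 0.48 (SE 0.079, adjusted p = 0.00307). Its relative *Bhlhe40* was at 74.5, 79.6, 82.9 and 94.3 CPM and 128, 107 and 169.9 CPM and rose by 0.72 (SE 0.14, adjusted p = 0.0201). The third ZT14 mouse was the highest for *Bhlhe40*, and this gene was called in only 3 of the 7 fits that left out a mouse, with an adjusted p of 0.289 without that mouse. Of the 16 repressors and modifiers, 5 were called higher and none lower, with a median log2 fold change of 0.24, and the kinases and ubiquitin ligase subunits that set the stability of the Period and Cryptochrome proteins (*Csnk1d*, *Csnk1e*, *Fbxl21*, *Btrc*) were not called, nor were *Timeless* and the AMP-kinase subunits *Prkaa1* and *Prkaa2*.

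The nuclear receptors that repress *Arntl* rose. *Nr1d2* was at 99.8, 93.3, 87.9 and 102 CPM at ZT2 and at 136, 146 and 154 CPM at ZT14. *Nr1d1* was at 76.3, 74.6, 83.3 and 85.7 CPM at ZT2 and at 117, 100.2 and 149.6 CPM at ZT14. Neither gene overlapped between the times, and the log2 fold changes were close, 0.61 (SE 0.076) and 0.62 (SE 0.11), with adjusted p-values of 7.98e-05 and 0.00679 by edgeR. *Nr1d1* lost its call without the third ZT14 mouse (adjusted p = 0.149), and its exons overlap those of *Thra* on the opposite strand, so that reads of the pair may not have been separated where counting did not use strand. The same holds for *Arntl*, *Bhlhe40* and *Bhlhe41*, whose exons overlap those of uncharacterised genes, and for *Dbp*, whose exons overlap those of *Sphk2*.

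*Arntl* (chr7:113207465-113314126) moved the other way, from 26.2, 33.8, 32.4 and 30.3 CPM at ZT2 to 16.2, 16.2 and 17.997 CPM at ZT14. All ZT14 mice were below all ZT2 mice, at 55.0% of the ZT2 level (log2 fold change -0.86, SE 0.096, adjusted p = 1.66e-05 by edgeR). The other activators did not pass. *Clock* was at 76.4, 75.7, 81.1 and 81.9 CPM and 71.7, 68.2 and 73.7 CPM (log2 fold change -0.14, SE 0.076, adjusted p = 0.387), and *Npas2*, which can stand in for *Clock* in the forebrain, at 43.9, 46.6, 47.3 and 46.0 CPM and 39.9, 33.3 and 38.8 CPM (-0.29, SE 0.12, adjusted p = 0.273). Both were lower in every ZT14 mouse than in every ZT2 mouse. *Rora*, *Rorb* and *Arntl2* overlapped between the times.

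Among the PAR bZIP outputs, *Dbp* (chr7:45705088-45710203) was at 50.7, 54.5, 43.5 and 45.0 CPM at ZT2 and at 117, 98.0 and 114 CPM at ZT14. The groups were far apart and the level rose 2.28-fold (log2 fold change 1.19, SE 0.11, adjusted p = 7.69e-07 by edgeR). *Hlf*, at 224, 228, 228 and 245 CPM and 298, 252 and 341 CPM, and *Tef*, at 485, 475, 449 and 410.4 CPM and 541, 500.4 and 519.8 CPM, also did not overlap, but with log2 fold changes of 0.37 (SE 0.11) and 0.20 (SE 0.086) and adjusted p-values of 0.152 and 0.286 they were not called. *Nfil3*, the repressor that competes for the same D-boxes, overlapped between the times (-0.19, SE 0.13, adjusted p = 0.466).

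**Figure D2:**
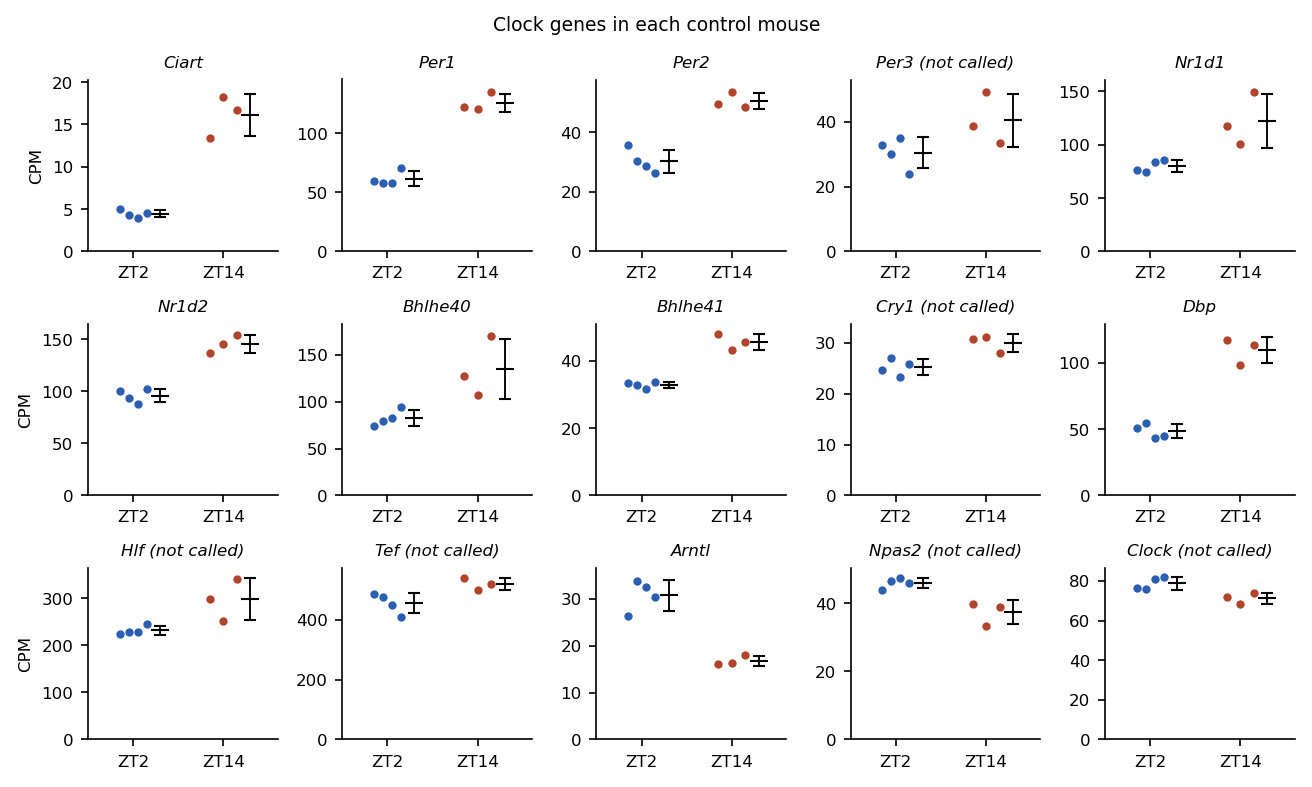
CPM (y axis, from 0) of 15 clock genes in each control mouse at ZT2 (blue, 4 mice) and ZT14 (red, 3 mice), with the mean and SD in black. *Arntl* is lower and *Ciart*, *Per1*, *Per2*, *Nr1d1*, *Nr1d2*, *Bhlhe40*, *Bhlhe41* and *Dbp* are higher at ZT14 without overlap, while genes titled as not called had an adjusted p above 0.05.

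The sequences shown next are stretches of promoter from called genes that hold the E-box CACGTG, the letters that CLOCK and BMAL1 bind, set beside *Cry1* as a clock gene that was not called. They were taken from RefSeq on GRCm38.p6, searched on both strands over the 250 bases before the RefSeq start of each gene, and cut to 30 bases on either side of the E-box or, for *Ciart* and *Bhlhe41*, at the gene's first GENCODE exon. For *Per1* and *Fkbp5* that RefSeq start lies inside the longer gene that GENCODE annotates. The letters of CACGTG read the same on both strands, the E-box is in capitals, each sequence is given on the strand of its gene, and none lies in an annotated exon of its gene.
Ciart (chr3:95882252-95882374, - strand): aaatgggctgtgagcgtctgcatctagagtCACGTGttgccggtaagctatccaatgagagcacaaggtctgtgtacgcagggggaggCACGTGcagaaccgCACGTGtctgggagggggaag
Per1 (chr11:69098753-69098818, + strand): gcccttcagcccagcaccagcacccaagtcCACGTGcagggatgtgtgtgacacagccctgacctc
Bhlhe41 (chr6:145865559-145865603, - strand): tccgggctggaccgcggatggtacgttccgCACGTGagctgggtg
Fkbp5 (chr17:28486283-28486348, - strand): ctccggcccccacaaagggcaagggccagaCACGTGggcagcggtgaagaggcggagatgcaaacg
Coq10b (chr1:55052662-55052727, + strand): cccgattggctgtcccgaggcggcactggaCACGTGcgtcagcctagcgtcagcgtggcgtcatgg
Cry1 (chr10:85185079-85185144, - strand): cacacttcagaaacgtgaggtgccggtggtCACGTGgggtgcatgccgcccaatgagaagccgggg
*Ciart* alone among these held 3 E-boxes, which began 116, 58 and 44 bases before its RefSeq start, while those of *Per1*, *Bhlhe41*, *Fkbp5*, *Coq10b* and *Cry1* began 166, 153, 169, 78 and 60 bases before theirs. *Coq10b*, which encodes a coenzyme Q binding protein of mitochondria and was picked for its sequence after its values were seen, rose from 16.7, 16.6, 12.6 and 17.4 CPM to 26.0, 27.2 and 25.9 CPM (log2 fold change 0.74, SE 0.13, adjusted p = 0.00523 by edgeR).

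An E-box was present in 8 of the 42 genes called higher that had a promoter entry (19.0%: *Ankrd12*, *Bhlhe41*, *Ciart*, *Coq10b*, *Fkbp5*, *Net1*, *Per1* and *Tspan4*) and in 0 of the 15 called lower. It was present in 9.35% of the 12720 tested genes with an entry and in 6.86% of all 27025 promoters. Among the clock lists, 5 of 23 members with an entry held it (21.7%), namely *Bhlhe41*, *Ciart*, *Cry1*, *Per1* and *Tef*, of which *Cry1* and *Tef* were not called. The D-box TTATGTAA, searched on both strands, was present in 0.7% of tested genes, in *Coq10b* among the called genes and in *Per3* and *Timeless* among the clock lists. The cyclic AMP response element TGACGTCA, which also reads the same on both strands, was present in 2.83% of tested genes and in *Topors* among those called higher and *Dtl* among those called lower. These matches describe letters in the windows and were not tested.

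Some genes that respond to glucocorticoids were also called. Their list, too, was chosen with earlier results of these data known, so its counts are a description and not a test. Of 22 receptor and responsive genes on the list, 6 were called higher (0.321% over all genes) and none lower, 20 had a log2 fold change above 0 (8886 of 17776 over all genes), and the median was 0.31 against a median near 0 over all genes. *Fkbp5*, a co-chaperone that dampens the glucocorticoid receptor and is itself induced by it, lies at chr17:28399094-28517527 and was at 27.4, 27.4, 25.0 and 26.8 CPM at ZT2 and at 46.7, 45.0 and 49.97 CPM at ZT14. The mice within each group were nearly alike, and the level rose 1.78-fold (log2 fold change 0.83, SE 0.072, adjusted p = 2.12e-07 by edgeR). *Tsc22d3* (GILZ), a mediator of the anti-inflammatory action of glucocorticoids, rose from 61.9, 55.1, 61.0 and 65.1 CPM to 110.0, 114 and 97.0 CPM (0.82, SE 0.11, adjusted p = 0.000284), without overlap.

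The steepest change on this list was that of *Plin4*, which encodes a lipid droplet protein. It was at 1.77, 2.43, 2.69 and 2.26 CPM at ZT2 and at 11.4, 15.7 and 9.55 CPM at ZT14, a 5.35-fold rise with all ZT14 mice above all ZT2 mice (log2 fold change 2.42, SE 0.29, adjusted p = 4.78e-05 by edgeR). Exons of *Plin4* overlap those of *Hdgfl2* on the opposite strand. *Hif3a*, a hypoxia-inducible factor subunit, went from 1.94, 3.82, 2.28 and 2.65 CPM to 11.8, 9.76 and 6.63 CPM, with a log2 fold change of 1.82 (SE 0.24, adjusted p = 0.000112). The ZT14 mice were spread, and the lowest of them was still above the highest ZT2 mouse.

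*Zbtb16*, a zinc finger transcription factor, was at 24.9, 19.3, 30.4 and 23.9 CPM at ZT2 and at 50.5, 39.6 and 38.3 CPM at ZT14 (log2 fold change 0.80, SE 0.15, adjusted p = 0.00670 by edgeR), and was not called without the first ZT14 mouse (adjusted p = 0.0622). *Map3k6*, a stress-activated kinase, was at 4.09, 3.18, 3.11 and 3.25 CPM and 7.05, 6.12 and 6.68 CPM (0.96, SE 0.21, adjusted p = 0.0317), and stayed called in 3 of the 7 fits that left out a mouse, with an adjusted p of 0.163 without the third ZT14 mouse. The other members did not pass. *Sgk1*, a kinase induced by the hormone, was at 45.3, 39.8, 37.8 and 51.7 CPM and 55.8, 58.4 and 57.1 CPM with no overlap (0.39, SE 0.16, adjusted p = 0.281). *Klf15* was at 28.7, 28.0, 24.3 and 22.3 CPM and 36.7, 34.6 and 30.3 CPM (0.40, SE 0.12, adjusted p = 0.137).

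*Pdk4*, a kinase that restrains glucose oxidation, was the member with the lowest fold change, at 27.8, 22.2, 24.6 and 21.4 CPM at ZT2 and 17.6, 15.5 and 16.9 CPM at ZT14 (-0.52, SE 0.13, adjusted p = 0.0832 by edgeR), and the ZT14 mice were below all ZT2 mice. The receptors themselves overlapped between the times, with log2 fold changes of 0.04 (SE 0.11) for *Nr3c1*, the glucocorticoid receptor, and 0.08 (SE 0.10) for *Nr3c2*, the mineralocorticoid receptor. Corticosterone was not measured in the data used here.

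**Figure D3:**
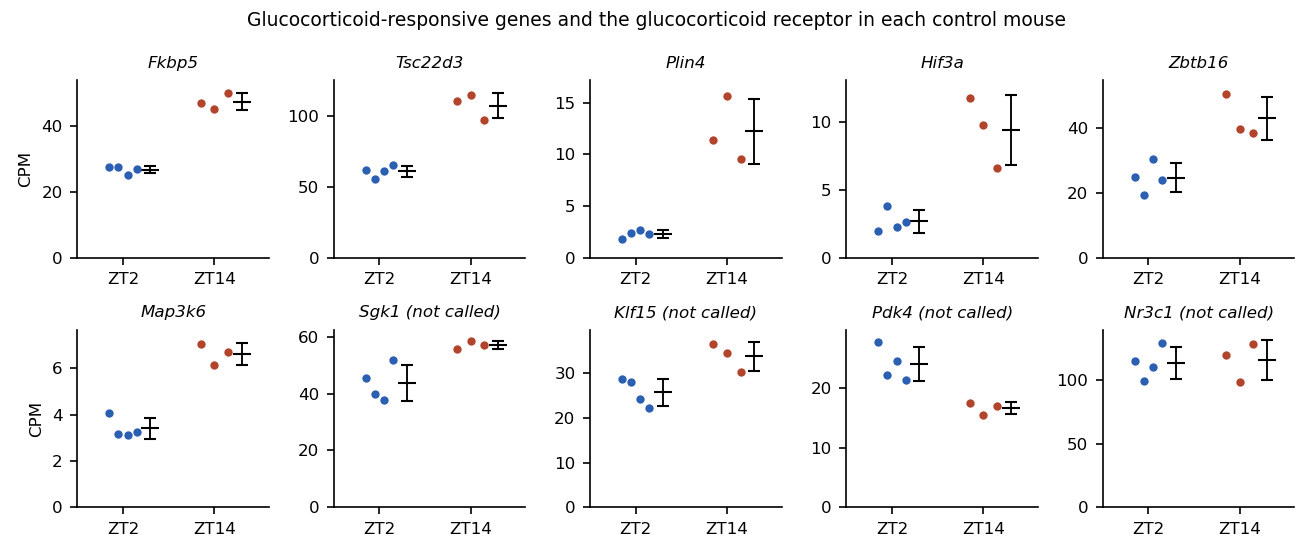
CPM (y axis, from 0) of 9 glucocorticoid-responsive genes and of *Nr3c1*, the glucocorticoid receptor, in each control mouse at ZT2 (blue, 4 mice) and ZT14 (red, 3 mice), with the mean and SD in black. *Fkbp5*, *Tsc22d3*, *Plin4*, *Hif3a*, *Zbtb16* and *Map3k6* separate the times, *Pdk4* lies lower at ZT14 without being called, and *Nr3c1* overlaps.

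Of 16 endothelial markers, 2 were called (0.416% over all genes), *Cldn5* lower and *Slc2a1* higher. *Cldn5* (chr16:18776847-18778262), the main claudin of the tight junctions that seal brain capillaries, fell from 77.4, 80.8, 86.7 and 79.2 CPM at ZT2 to 49.98, 40.7 and 48.6 CPM at ZT14. Every ZT14 mouse was below every ZT2 mouse, at 57.6% of the ZT2 level (log2 fold change -0.80, SE 0.10, adjusted p = 0.000112 by edgeR). The basement membrane collagens *Col4a1* and *Col4a2*, which were on no list and are transcribed from a shared promoter, fell together, *Col4a1* from 34.9, 36.3, 41.5 and 38.9 CPM to 27.6, 23.5 and 26.8 CPM and *Col4a2* from 42.9, 40.1, 43.7 and 36.3 CPM to 28.2, 27.1 and 25.6 CPM. Their log2 fold changes were -0.54 (SE 0.10) and -0.59 (SE 0.10), with adjusted p-values of 0.00907 and 0.00523 and no overlap of the groups. *Col4a1* was called in 5 of the 7 fits that left out a mouse (adjusted p = 0.0520 without the third ZT2 mouse), and *Col4a2* in 6 (adjusted p = 0.0735 without the third ZT14 mouse). The annotated exons of the pair overlap on opposite strands, so a part of their reads may be shared.

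*Slc2a1* (GLUT1), the glucose transporter of the blood-brain barrier, rose from 77.5, 84.5, 89.7 and 105 CPM at ZT2 to 144, 114 and 156 CPM at ZT14. The groups did not overlap (log2 fold change 0.64, SE 0.14, adjusted p = 0.0317 by edgeR), and the call was kept in 2 of the 7 fits that left out a mouse, with an adjusted p of 0.272 without the third ZT14 mouse. The median log2 fold change of the 16 endothelial markers was -0.07. Of the 16, 6 had a log2 fold change above 0 and 10 below. At an unadjusted p under 0.05 by edgeR, 4 were higher and 2 lower (7.95% and 6.84% over all genes). *Pecam1*, *Cdh5*, *Flt1* and *Tek*, markers of the endothelial cell as such, had log2 fold changes of -0.26 (SE 0.13), -0.06 (SE 0.20), -0.24 (SE 0.15) and -0.31 (SE 0.16) and were not called. *Ly6c1* went the other way (0.34, SE 0.095, adjusted p = 0.114 by edgeR) and was not called either. The summed TPM of the 16 markers ran from 370 to 504 at ZT2 and from 416 to 495 at ZT14, and thus overlapped. None of 9 mural cell markers was called (median 0.13).

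*Mfsd2a*, the lipid transporter of the barrier, was at 21.6, 20.9, 22.9 and 22.2 CPM and 30.7, 26.6 and 28.7 CPM (0.39, SE 0.11, adjusted p = 0.0975 by edgeR), and *Slco1c1*, a thyroid hormone transporter, at 87.7, 84.6, 84.3 and 84.5 CPM and 70.9, 58.5 and 70.6 CPM (-0.35, SE 0.11, adjusted p = 0.147). Neither overlapped between the times and neither was called. *Vasp*, which promotes growth of actin filaments, fell from 18.2, 16.7, 18.03 and 17.5 CPM to 11.8, 11.8 and 11.2 CPM (-0.60, SE 0.10, adjusted p = 0.00497), with narrow groups, and missed the threshold without the third ZT14 mouse (adjusted p = 0.0502). *Apln* and *Ramp2*, named after their values were seen, went in opposite directions. *Apln*, the ligand apelin, was at 78.9, 76.7, 78.5 and 64.6 CPM and 54.4, 45.2 and 52.9 CPM (-0.55, SE 0.12, adjusted p = 0.0471), and *Ramp2*, part of the adrenomedullin receptor, at 11.9, 9.48, 11.03 and 13.5 CPM and 17.5, 16.4 and 18.6 CPM (0.62, SE 0.12, adjusted p = 0.0186). *Apln* stayed called in 1 of the 7 fits that left out a mouse (adjusted p = 0.151 without the first ZT2 mouse) and *Ramp2*, whose exons overlap those of *Vps25* on the same strand, in 2 (adjusted p = 0.163 without the third ZT14 mouse).

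Several of the smallest p-values belonged to genes outside these lists. *Xdh*, the purine-oxidising enzyme xanthine dehydrogenase, rose from 5.32, 6.53, 5.23 and 6.56 CPM at ZT2 to 17.1, 12.4 and 14.8 CPM at ZT14, 2.51-fold (log2 fold change 1.33, SE 0.18, adjusted p = 0.000174 by edgeR). *Fmo2*, a flavin-containing monooxygenase, rose from 0.807, 1.56, 1.76 and 1.82 CPM to 8.29, 5.49 and 6.32 CPM (2.17, SE 0.30, adjusted p = 0.000284). Neither gene overlapped between the times.

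*Atp10a*, a phospholipid flippase, was at 11.7, 11.3, 12.9 and 11.7 CPM at ZT2 and at 25.3, 20.1 and 19.4 CPM at ZT14 (log2 fold change 0.86, SE 0.14, adjusted p = 0.00175 by edgeR). *Net1*, an exchange factor for the GTPase RhoA, was at 26.4, 22.2, 23.7 and 28.3 CPM and 43.7, 34.9 and 42.7 CPM (0.69, SE 0.11, adjusted p = 0.00283), and *Rrp8*, a methyltransferase of the nucleolus, at 9.68, 8.73, 8.34 and 8.43 CPM and 12.96, 15.4 and 14.6 CPM (0.71, SE 0.12, adjusted p = 0.00283). The groups of all 3 genes were apart, and each was called whichever of the 7 mice was left out.

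On the falling side, the folds of *Gm9884* and *Tmem45a* were the largest, both at low levels. *Gm9884*, a gene model annotated as still to be tested by experiment, was at 0.753, 1.21, 1.35 and 0.606 CPM at ZT2 and at 0.108, 0.316 and 0.221 CPM at ZT14 (log2 fold change -2.10, SE 0.45, adjusted p = 0.0317 by edgeR), and *Tmem45a*, a transmembrane protein gene, at 1.34, 1.73, 1.399 and 1.76 CPM and 0.217, 0.711 and 0.575 CPM (-1.59, SE 0.34, adjusted p = 0.0332). *Gm10561*, an antisense RNA over *Rftn2*, fell from 9.30, 10.8, 8.75 and 8.43 CPM to 5.48, 5.18 and 5.13 CPM (-0.82, SE 0.16, adjusted p = 0.0132), and without strand its reads cannot be told from those of *Rftn2*. All 3 genes were lower in each ZT14 mouse than in each ZT2 mouse, and all lost the call without the third ZT14 mouse (adjusted p = 0.192, 0.151 and 0.123).

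The remaining genes among the 15 falling calls with the smallest p were *Gramd3*, *Mmp14*, *Lap3*, *Plcd4*, *Dtl*, *Olig2* and *Etv4*, with log2 fold changes from -0.73 to -0.50. *Lap3*, a leucine aminopeptidase, was at 90.5, 94.4, 82.3 and 79.4 CPM at ZT2 and at 64.7, 60.4 and 57.7 CPM at ZT14 (log2 fold change -0.50, SE 0.11, adjusted p = 0.0317 by edgeR). *Gramd3* was at 35.3, 36.2, 35.1 and 24.9 CPM and 22.8, 18.6 and 17.7 CPM (-0.73, SE 0.14, adjusted p = 0.0174), with the fourth ZT2 mouse closest to the ZT14 mice. Each of the 7 genes was called in at most 3 of the fits that left out a mouse, and the adjusted p without the third ZT14 mouse was 0.214 for *Lap3* and 0.160 for *Gramd3*.

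Both cold-inducible RNA-binding proteins on the list, which has only these 2 members, were called higher (0.321% over all genes). *Rbm3* was at 81.5, 59.2, 51.2 and 58.2 CPM at ZT2 and at 97.1, 100.4 and 93.0 CPM at ZT14 (log2 fold change 0.64, SE 0.11, adjusted p = 0.00497 by edgeR), with the first ZT2 mouse highest of its group and still below the ZT14 mice. *Cirbp* was at 46.9, 45.0, 48.4 and 43.3 CPM and 62.2, 65.4 and 67.5 CPM (0.51, SE 0.11, adjusted p = 0.0305), without overlap, and kept its call in 1 of the 7 fits that left out a mouse (adjusted p = 0.204 without the third ZT14 mouse). Exons of *Rbm3* overlap those of *Rbm3os* on the opposite strand.

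None of 25 cytosolic heat-shock chaperones was called (median 0.12, or 0.04 without the third ZT14 mouse). At an unadjusted p under 0.05 by edgeR, 5 were higher and 2 lower (7.95% and 6.84% over all genes). *Hspa1b*, an inducible HSP70 gene, was at 4.41, 9.02, 4.97 and 6.56 CPM at ZT2 and at 9.76, 9.92 and 16.8 CPM at ZT14, just without overlap, and missed the threshold (log2 fold change 0.98, SE 0.23, adjusted p = 0.0536 by edgeR). Its near-identical neighbour *Hspa1a* (0.91, SE 0.27, adjusted p = 0.139) shares reads with it, so the split between the pair is uncertain. Of 20 chaperones of the endoplasmic reticulum and genes of the unfolded protein response, 0 were called by edgeR, and the median was -0.06. Of these, 2 passed an unadjusted p under 0.05, both upwards (7.95% over all genes).

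Immediate early genes, which report recent neuronal activity, varied between mice. Of 33, only *Trib1* was called (0.416% over all genes), and 27 had a log2 fold change above 0, against 8886 of 17776 over all genes. The median was 0.35, or 0.12 without the third ZT14 mouse and 0.15 with the mitochondrial share as a covariate. *Trib1*, a pseudokinase, rose from 12.2, 14.6, 15.1 and 18.9 CPM at ZT2 to 28.1, 26.0 and 30.3 CPM at ZT14 (log2 fold change 0.90, SE 0.17, adjusted p = 0.0132 by edgeR), and was called in 3 of the 7 fits that left out a mouse (adjusted p = 0.132 without the third ZT14 mouse). *Arc*, a gene of synaptic plasticity, was at 111, 133, 88.8 and 206 CPM at ZT2 and at 360.4, 349.8 and 500.4 CPM at ZT14. Its ZT14 mice were all above its ZT2 mice and the fold change was the largest of the list, but with a wide error (log2 fold change 1.59, SE 0.47, adjusted p = 0.137), and it was not called.

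*Sik1*, a kinase that limits the response of the clock to light, was at 9.68, 11.6, 7.67 and 10.9 CPM at ZT2 and at 16.7, 15.6 and 16.5 CPM at ZT14 (log2 fold change 0.72, SE 0.19, adjusted p = 0.0877 by edgeR). *Dusp6*, a phosphatase of ERK, was at 34.2, 47.3, 42.6 and 52.0 CPM and 61.1, 65.0 and 70.2 CPM (0.58, SE 0.17, adjusted p = 0.139). *Homer1*, a scaffold of the postsynapse with an activity-induced short form, was at 215, 228, 215 and 245 CPM and 158, 143 and 177 CPM (-0.49, SE 0.14, adjusted p = 0.132), opposite in direction to *Arc*. In all 3 genes the groups did not overlap. *Fos*, a transcription factor gene often used to mark active neurons, was at 10.7, 12.8, 10.5 and 33.5 CPM and 19.6, 23.5 and 47.7 CPM, where the fourth ZT2 mouse lay above the first and second ZT14 mice (0.86, SE 0.72, adjusted p = 0.566).

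In the cholesterol pathway, the median log2 fold change of 24 genes was 0.07. *Acat2*, a cytosolic thiolase, rose from 27.9, 30.8, 30.6 and 28.6 CPM at ZT2 to 35.4, 39.7 and 38.7 CPM at ZT14 (log2 fold change 0.37, SE 0.084, adjusted p = 0.0444 by edgeR). The groups did not overlap, and the call was kept in 2 of the 7 fits that left out a mouse (adjusted p = 0.268 without the third ZT14 mouse). *Insig1*, a sensor of sterols, was at 65.5, 60.8, 72.3 and 75.6 CPM and 87.7, 87.5 and 88.1 CPM and just missed the threshold (0.36, SE 0.084, adjusted p = 0.0508). *Srebf2*, the transcription factor that drives the pathway, had a log2 fold change of 0.0009 (SE 0.097).

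Microglial genes, which stood at the centre of the series, were not called. Of 24 markers, 0 passed by edgeR, and the median log2 fold change was -0.02. At an unadjusted p under 0.05, 3 were lower and 0 higher (6.84% and 7.95% over all genes). *Ctss*, which encodes the matrix-degrading protease cathepsin S, was at 86.2, 85.1, 85.4 and 83.4 CPM at ZT2 and at 88.5, 76.4 and 91.2 CPM at ZT14 (log2 fold change 0.01, SE 0.095, adjusted p = 0.952). *P2ry12*, the purine receptor of surveying microglia, was at 38.7, 39.8, 40.2 and 49.0 CPM and 39.8, 36.9 and 43.1 CPM (-0.06, SE 0.11, adjusted p = 0.802). The groups overlapped in both genes.

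The 3 markers below an unadjusted p of 0.05 were *Cx3cr1*, *Aif1* and *Ptprc*. *Cx3cr1*, the fractalkine receptor, was at 66.7, 66.3, 67.0 and 67.6 CPM at ZT2 and at 62.0, 49.3 and 55.3 CPM at ZT14, with tight ZT2 values and no overlap (log2 fold change -0.26, SE 0.089, adjusted p = 0.198 by edgeR). *Aif1*, which encodes the IBA1 protein used to stain microglia, was at 6.62, 8.62, 6.99 and 9.21 CPM and 6.07, 4.94 and 6.23 CPM, also without overlap (-0.44, SE 0.17, adjusted p = 0.253). *Ptprc*, the pan-leukocyte gene, overlapped at 4.57, 5.26, 4.92 and 3.91 CPM and 4.39, 2.73 and 2.61 CPM (-0.53, SE 0.21, adjusted p = 0.257). The summed TPM of the 24 markers ran from 845 to 1022 at ZT2 and from 841 to 1052 at ZT14. Of 7 markers of border macrophages, 0 were called by edgeR, and *Cd163*, a scavenger receptor, came closest at 1.56, 2.60, 2.54 and 2.48 CPM and 3.52, 4.66 and 3.98 CPM (0.83, SE 0.20, adjusted p = 0.0637).

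Perineuronal net components did not pass either, with 0 of 11 called by edgeR and a median of 0.03. At an unadjusted p under 0.05, 2 were higher and 1 lower (7.95% and 6.84% over all genes). *Acan*, the aggrecan core protein, was at 1.61, 1.504, 2.23 and 3.36 CPM at ZT2 and at 3.09, 2.81 and 4.07 CPM at ZT14. The fourth ZT2 mouse lay above the first and second ZT14 mice, and the gene was not called (log2 fold change 0.61, SE 0.28, adjusted p = 0.320). *Vcan*, the versican gene, was at 10.3, 13.6, 8.86 and 13.7 CPM and 14.6, 16.1 and 17.0 CPM without overlap (0.46, SE 0.16, adjusted p = 0.213), and *Bcan*, the brevican gene, at 351, 357, 362 and 305 CPM and 324, 282 and 279.7 CPM with overlap (-0.21, SE 0.10, adjusted p = 0.327).

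Of 26 matrix proteases and inhibitors, *Mmp14* was the single call (0.416% over all genes) and the median was -0.07. *Mmp14*, a membrane-anchored protease that cleaves collagen and activates MMP2, fell from 22.3, 22.2, 26.0 and 22.4 CPM at ZT2 to 15.4, 12.8 and 13.9 CPM at ZT14 (log2 fold change -0.72, SE 0.15, adjusted p = 0.0305 by edgeR). All ZT14 mice were lower, and the call held in 2 of the 7 fits that left out a mouse (adjusted p = 0.157 without the third ZT14 mouse). *Timp4* (-0.44, SE 0.14), *Ctsl* (0.24, SE 0.084) and *Adamts4* (-0.36, SE 0.13) did not overlap between the times, which held for 10.5% of all genes. Their adjusted p-values were 0.175, 0.212 and 0.231 by edgeR. *Mmp9* had a log2 fold change of -0.57 (SE 0.38) and an adjusted p of 0.470.

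Markers of the main cell types were detected in every library, and most were not called, which does not show that they were unchanged. None of the markers of astrocytes (15), mature oligodendrocytes (14), excitatory neurons (12) or interneurons (14) was called by edgeR, nor any AMPA or NMDA receptor subunit (10) or GABA-A receptor subunit (12). The list medians were -0.18 for astrocytes (12 of 15 lower) and -0.21 for oligodendrocytes (11 of 14 lower). They were 0.05 for excitatory neurons (8 of 12 higher) and 0.16 for interneurons (11 of 14 higher). For AMPA and NMDA receptor subunits the median was 0.17 (9 of 10 higher), and for GABA-A receptor subunits 0.22 (10 of 12 higher). Over all genes, 8886 of 17776 were higher. Myelin basic protein (*Mbp*) was at 5934, 6601, 5761 and 3935 CPM at ZT2 and at 4046, 3905 and 2726 CPM at ZT14, with the fourth ZT2 mouse below the first ZT14 mouse (log2 fold change -0.64, SE 0.20, adjusted p = 0.159). *Olig2*, a transcription factor of the oligodendrocyte lineage, was the single call among 11 precursor markers (0.416% over all genes). It was at 33.7, 45.2, 39.0 and 43.2 CPM and 30.8, 24.7 and 25.2 CPM (-0.58, SE 0.13, adjusted p = 0.0444 by edgeR). The call held in 3 of the 7 fits that left out a mouse (adjusted p = 0.271 without the third ZT14 mouse). *Pdgfra*, the defining receptor of precursors, ran from 8.90 to 11.4 TPM at ZT2 and from 8.94 to 13.6 TPM at ZT14.

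Tissue next to the cortex was present in varying amounts. All 10 choroid plexus markers had a negative log2 fold change, with a median of -0.96. At an unadjusted p under 0.05, 5 were lower (6.84% over all genes), but 0 were called by edgeR. The defining marker *Ttr*, the transthyretin gene, ran from 586 to 1060 TPM at ZT2 and from 104 to 741 TPM at ZT14. The 5 blood markers had a median of 0.72 (-0.04 with the mitochondrial share as a covariate), none called, with a summed TPM from 273 to 1177 at ZT2 and from 437 to 1751 at ZT14. Striatal (12, median -0.17) and hypothalamic (8, median 0.39, or -1.59 without the second ZT14 mouse) markers were also without a call, and the striatal sum ranged widely within both groups, from 533 to 1294 TPM at ZT2 and from 500 to 1300 TPM at ZT14. No tissue marker was at 0 in every library of a group, and *Hcrt*, the hypothalamic orexin gene, ran from 0 to 3.17 TPM at ZT14 and from 0.214 to 4.67 TPM at ZT2. Mitochondrially encoded transcripts (13) and interferon response genes (12) had no call, with medians of -0.22 and -0.05.

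**Figure D4:**
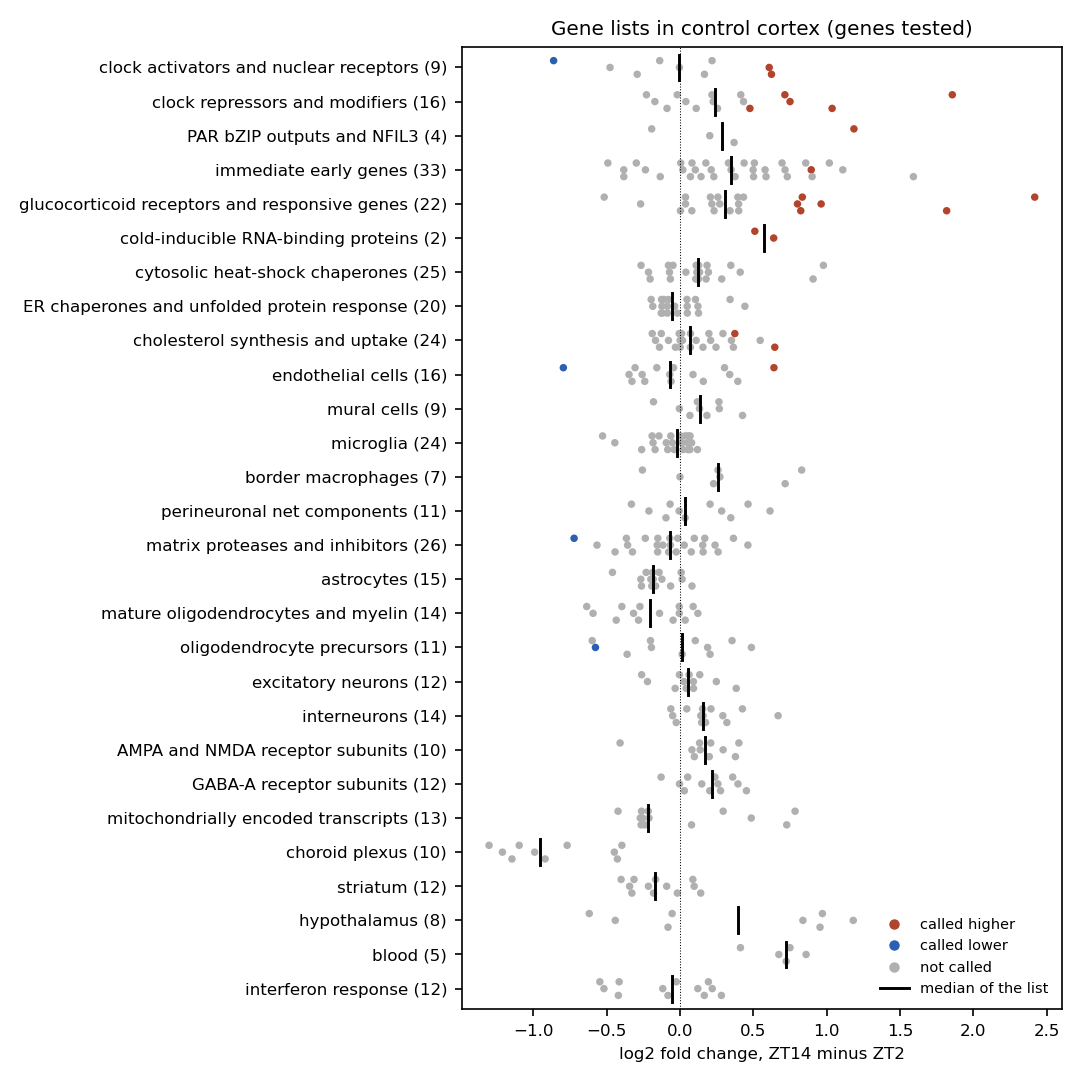
Log2 fold change of ZT14 against ZT2 (x axis) for each tested member of 28 gene lists (y axis, number of members in brackets), with called members in red (higher) or blue (lower), members not called in grey and the list median as a black bar. Calls gather in the clock, glucocorticoid and cold-inducible lists, and all lists were chosen with earlier results of these data known. The choroid plexus list lies wholly below 0 without a call.

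The other 16 control libraries place both times within the day. Of the 57 genes called higher, 49 had their highest mean of the 6 Zeitgeber times at ZT14, and of the 17 called lower, 15 had their lowest mean at ZT14. These control means include the groups compared and are a description. *Per1* had means of 61.5, 58.4, 69.9, 125, 72.0 and 59.6 CPM from ZT2 to ZT22 in 4 h steps, a peak at a single time. *Dbp* had means of 48.4, 72.2, 110.2, 109, 72.0 and 48.1 CPM at these times, so that ZT10 stood level with ZT14. *Cirbp*, at 45.9, 76.4, 97.2, 65.0, 52.5 and 50.1 CPM, was far higher at ZT10 than at ZT14, and *Rbm3*, at 62.5, 80.1, 104, 96.8, 86.0 and 60.6 CPM, also peaked at ZT10.

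Among the glucocorticoid-responsive genes, *Fkbp5*, *Tsc22d3*, *Plin4*, *Hif3a* and *Zbtb16* had their highest mean at ZT14. For *Hif3a* and *Tsc22d3* other times stood close to it. *Hif3a* had means of 2.67, 3.91, 8.51, 9.38, 7.30 and 9.02 CPM from ZT2 to ZT22. Those of *Tsc22d3* were 60.8, 68.4, 91.7, 107, 103.7 and 95.0 CPM. *Fkbp5* had means of 26.6, 27.3, 31.9, 47.2, 31.4 and 33.7 CPM from ZT2 to ZT22, and *Plin4* of 2.29, 2.34, 4.33, 12.2, 5.21 and 9.08 CPM, with ZT22 the next highest. *Cldn5*, at 81.0, 65.1, 47.9, 46.4, 50.9 and 69.7 CPM, was low from ZT10 to ZT18. *Col4a1*, at 37.9, 33.9, 27.4, 26.0, 24.3 and 34.6 CPM, and *Col4a2*, at 40.7, 33.1, 30.1, 27.0, 25.6 and 34.6 CPM, were both lowest at ZT18.

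The 8 PLX5622-fed mice at the same times (1200 ppm in chow, 4 mice at each time) share no library with the control comparison. Fitted on the 24 PLX5622 libraries alone, 191 genes (1.07%) were called between ZT14 and ZT2, 136 higher and 55 lower. Of the 74 genes called in control mice, 69 had the same direction in PLX5622 mice, against 11270 (63.4%) of all 17776 genes, and 38 were also called (33 higher and 5 lower), which is 51.4% of the control calls and 19.9% of the PLX5622 calls. The median ratio of the PLX5622 to the control log2 fold change was 0.786 over the 74 genes. These genes were chosen by their control values, which favours large control folds. The ratio therefore cannot be read as a weaker change in PLX5622 mice. Of the 191 genes called in PLX5622 mice, 182 had the same direction in control mice.

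*Ciart* changed by 1.86 (SE 0.16) in control and by 1.77 (SE 0.14) in PLX5622 mice on the log2 scale, *Dbp* by 1.19 (SE 0.11) and 1.53 (SE 0.13), *Per1* by 1.04 (SE 0.13) and 1.13 (SE 0.11), and *Arntl* by -0.86 (SE 0.096) and -0.98 (SE 0.092). All 4 were called in both diets. *Fkbp5* changed by 0.83 (SE 0.072) and 0.71 (SE 0.087), *Plin4* by 2.42 (SE 0.29) and 2.93 (SE 0.32), and *Cldn5* by -0.80 (SE 0.10) and -0.65 (SE 0.11), again called in both. Of the glucocorticoid list, 12 of 22 members were called higher in PLX5622 mice, against 136 of 17776 over all genes. *Sgk1* was among these members, with a log2 fold change of 1.01 (SE 0.13, adjusted p = 3.47e-05 by edgeR) against 0.39 (SE 0.16) in control mice. The difference between the diets in *Sgk1* had an unadjusted p of 0.00610 and an adjusted p of 0.899.

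A test of the difference between the diets found no gene. Of 17776 genes, 0 (0%) were called, with 852 at an unadjusted p under 0.05 and a smallest adjusted p of 0.733, and DESeq2 and limma on log2(TPM + 1) also called 0. Among the 74 genes, 14 had an unadjusted p under 0.05, but these genes were chosen by control values that also enter this test. The 5 genes whose direction differed in PLX5622 mice were *Vasp*, *Mkx*, *Tnni2*, *Epha5* and *Cox11*, of which *Mkx*, *Tnni2*, *Epha5* and *Cox11* were named after their values were seen. *Vasp* changed by -0.60 (SE 0.10) in control and by 0.11 (SE 0.13) in PLX5622 mice (unadjusted p of the difference = 8.33e-05 by edgeR, adjusted p = 0.733). A p that misses this threshold does not show that a gene changed alike in both diets.

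**Figure D5:**
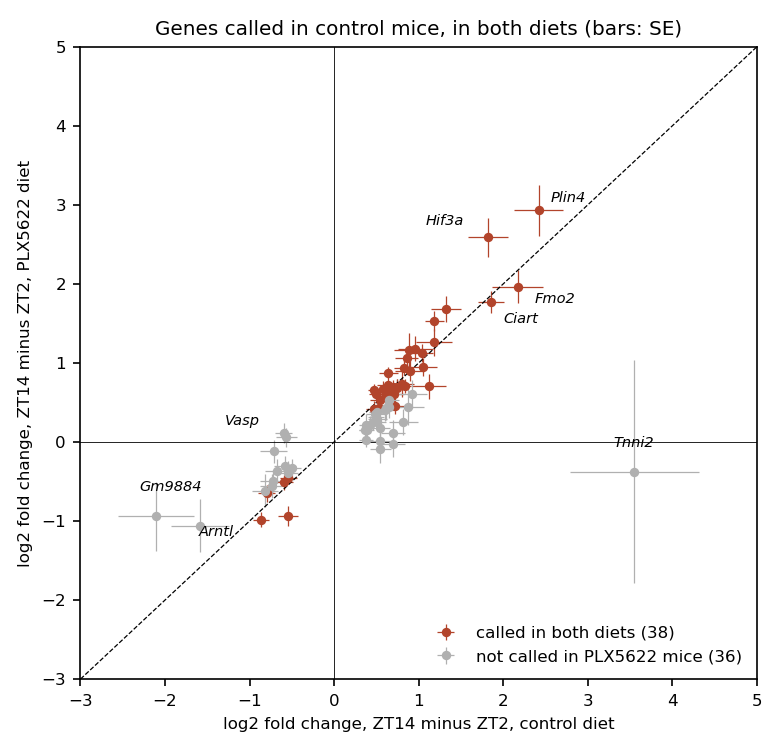
Log2 fold change of ZT14 against ZT2 with its SE in control mice (x axis) and in PLX5622 mice (y axis) for the 74 genes called in control mice, in red where also called in PLX5622 mice (38 genes). Of the 74 points, 69 lie where both diets have the same sign, the dashed line marks equal change, and *Tnni2*, which rests on 1 control mouse, lies far from it.

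The deposited TPM values, which were made by a separate quantification, gave the same directions. Of the 74 genes, 71 passed the filter of the TPM fit, and all 71 had the same sign in limma on log2(TPM + 1). That scale understates changes of low genes, and 26 of the 71 were called on it. Those not called there included *Per2* (log2 fold change 0.65, adjusted p = 0.239 by limma), *Hif3a* (0.52, 0.356), *Map3k6* (0.42, 0.387) and *Col4a1* (-0.23, 0.566). The 3 without a TPM fit were *Gm9884*, *Tmem45a* and *Tnni2*. The median of all genes lay at 0.11 in the TPM fit instead of near 0, and relative to that shift all 71 signs also held. Lists whose median lay close to 0 changed sign on that scale, the endothelial list from -0.07 to 0.02 and the microglial list from -0.02 to 0.08.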

How the data were processed

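Per the paper's methods, the authors aligned reads with STAR to GRCm38.p6 and quantified transcripts with Salmon, and their processing notes name STAR, featureCounts, edgeR and limma on mm10 without settings. The deposited table named for FPKM holds whole-number counts that sum to the library depth and was used as the authors' raw counts for 54532 genes, while the deposited TPM values (54281 genes) were used for levels and as an alternative. Strandedness of counting is not given in the sources used here. Genes with at least 10 counts in at least 3 of the 23 control libraries were kept (17776). Contrasts came from edgeR 4.0.16 (R 4.3.3; TMM, glmQLFit and glmQLFTest, two-sided), with Zeitgeber time as a 6-level factor over the 23 control or the 24 PLX5622 libraries, and over all 47 for the difference between the diets. CPM are TMM-normalised over the 47 libraries, log2 fold changes are ZT14 minus ZT2, and each SE was derived from the F statistic. DESeq2 1.42.0 on the counts and limma 3.58.1 on log2(TPM + 1) were alternatives, and the code was tested on simulated data. Summaries used Python 3.11.15, pandas 2.3.3 and scipy 1.17.1. No replicate pair agreed within sampling noise. Gene positions came from GENCODE M21, which held all 74 called genes, and promoters from RefSeq.

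The members and the 28 gene lists were chosen with earlier results of these data known. Named genes were all members of the 3 clock lists, *Ctss*, *P2ry12* and *Acan*, the 15 genes with the smallest p in each direction among those called, the 5 largest non-overlapping folds in each direction, and up to 5 members with the smallest p of each other list. Outside that rule, *Tnni2*, *Coq10b*, *Apln*, *Ramp2*, *Mkx*, *Epha5*, *Cox11*, *Map3k6*, *Sgk1*, *Klf15*, *Pdk4*, *Nr3c1*, *Nr3c2*, *Fos*, *Mmp9*, *Srebf2*, *Pecam1*, *Cdh5*, *Flt1*, *Tek*, *Mfsd4a*, the defining markers *Pdgfra*, *Ttr* and *Hcrt*, and *Ankrd12*, *Tspan4* and *Topors*, which hold a promoter motif, were named after their values were seen. Tagln and Has2 did not pass the filter, and a few list members are not reported here.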

Additional observations from a re-analysis of the deposited data

Results flagged for a closer look

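Among 204 groups of 4 ZT2 mice examined, 14 held a mouse that stood apart from the other 3 by Dixon's test, where chance gives about 1 in 20 (10.2 here). The groups of 3 mice at ZT14 were not examined.

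The fourth ZT2 mouse stood apart for 7 genes. It was high for *P2ry12* (48.96 CPM against 38.67 to 40.25 in the others) and *Hspa1a* (6.395 against 3.496 to 3.932). It was low for *Gramd3* (24.86 against 35.07 to 36.20), *Ntsr2* (129.8 against 160.3 to 163.3), *Aldh1l1* (95.54 against 110.9 to 113.6), mt-Nd4l (13.01 against 21.84 to 22.74) and *Apln* (64.56 against 76.68 to 78.90). *Ntsr2* and *Aldh1l1* are astrocyte markers, and this mouse also had the lowest mitochondrial share of the ZT2 group. *Gramd3* and *Apln*, both called lower at ZT14, were closest to the ZT14 mice in it.

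The first ZT2 mouse stood apart for 4 genes, at 87.73 CPM for *Slco1c1* (others 84.33 to 84.60), 1.56 CPM for *Cd163* (2.481 to 2.602), 4.088 CPM for *Map3k6* (3.108 to 3.253) and 0.2689 CPM for *Tnni2* (0.1036 to 0.1157). The second ZT2 mouse was at 19.95 CPM for *Myh11* (13.83 to 14.63) and at 24.40 CPM for *Mfsd4a* (32.36 to 33.05), a gene called higher at ZT14. The third ZT2 mouse was at 25.95 CPM for *Mmp14* (22.21 to 22.38). In *Slco1c1* the whole group spanned only a few percent of its level.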

How the results depend on the processing

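The 9 calls in the clock lists ran from 6 to 12 over all settings, while the numbers of calls over all genes moved widely. Leaving out 1 mouse gave 24 to 255 calls in place of 74, with 21 to 176 higher, 3 to 79 lower, 14 to 34 list members and 24 to 235 with the same direction in PLX5622 mice, and 105 to 175 in place of 191 in PLX5622 mice. The total, higher and lower calls and those with the same direction in PLX5622 mice were 236, 151, 85 and 221 by DESeq2, 151, 110, 41 and 141 with all 47 libraries in 1 fit, 511, 317, 194 and 428 without a filter on low counts, 39, 32, 7 and 37 with the mitochondrial share as a covariate, and 29, 23, 6 and 28 with only the ZT2 and ZT14 libraries. By limma they were 28, 25, 3 and 28 on log2(TPM + 1), 21, 18, 3 and 21 on log2(TPM + 0.1), and 19, 17, 2 and 18 without a filter. List members called, 24 in all, were 12, 11 and 12 in these limma fits and 68 without a count filter. In PLX5622 mice the calls were 339 by DESeq2, 101, 101 and 89 by the limma fits and 92 with only both times, and the difference between the diets had 12 calls without a filter in place of 0. The causes were not tested.

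DESeq2 size factors in edgeR gave 73 calls and a mean CPM of at least 1 gave 95, of which 71 were among the 74. A block for the replicate number gave 1149 calls (719 higher, 430 lower, 969 with the same direction in PLX5622 mice) and 69 list members, with all 74 genes among the 1149. Deviations of same-numbered ZT2 and ZT14 mice correlated at 0.0891, 0.248 and -0.0834, not every mouse correlated best with its own number, and the numbers were therefore not taken to pair the mice. The highest correlation between control mice of the 2 times was 0.405, for the fourth ZT2 and the third ZT14 mouse. These mice also had the lowest mitochondrial share of their groups, and what they shared was not tested. No called direction reversed under any setting run. Over the named genes and settings, 3574 values stayed on their side of the threshold, 465 lost the call, 91 gained it and 19 list medians moved by more than the median SE of their members.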
